A study of Mus musculus with 12 samples.

Results

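The mRNAs of the cytochrome P450 families Cyp1, Cyp3a and Cyp4 were followed in mouse liver, in whole lysates and in the fraction of mitochondria that carries rough endoplasmic reticulum (ER) with it. The members were all genes whose symbol is Cyp1a, Cyp1b, Cyp3a or Cyp4 with any letter, followed by digits only. They numbered 27 of the 35498 genes in the count table, with 2 genes of Cyp1a, 1 of Cyp1b, 7 of Cyp3a, 5 of Cyp4a, 1 of Cyp4b, 9 of Cyp4f, 1 of Cyp4v and 1 of Cyp4x. The livers came from 6 male C57BL/6N mice of 9 to 12 weeks, sampled 3 h after a meal that ended an overnight fast. Each mouse gave 1 library of postnuclear lysate, which is homogenised liver spun free of nuclei and debris, and 1 library of wrappER-associated mitochondria (WAM), prepared from that lysate. No allele, drug or diet differed between the groups, so the only contrast is the fraction. The comparison asks which P450 mRNAs travel with ER-wrapped mitochondria, and the mouse numbers allow it to be made within each animal.

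Microsomal P450s are haem enzymes that are made on ER-bound ribosomes and stay anchored in the ER membrane by their first residues, where they take electrons from P450 reductase. Cyp1 enzymes oxidise planar aromatic compounds and are induced through the aryl hydrocarbon receptor AHR, Cyp3a enzymes clear many drugs and steroids and are induced through the receptors PXR and CAR, and Cyp4 enzymes hydroxylate the far end of fatty acids and eicosanoids. Cyp4a10 and Cyp4a14 are classical targets of the fatty acid receptor PPARA in mouse liver.

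Levels between genes are given in TPM, the authors' length-scaled abundance, and a gene's change between fractions in CPM, counts divided by a TMM-scaled library size, which centres the libraries on the typical mRNA. Total estimated counts were 7400155 to 12023984 in lysates and 8344144 to 9712382 in WAM. Hepatocyte markers were high in lysates (Alb at 15628 to 40332 TPM, Apoa1 at 6110 to 8814 TPM), so the tissue label holds. The lysate of mouse 5 stood apart in macrophage and neutrophil RNA: 14 Kupffer cell markers took 0.117% of its counts against 0.0375 to 0.0531% in the other lysates, and 11 neutrophil markers took 0.00166% against at most 0.000286%. Its WAM library showed the same, with 0.122% against 0.0399 to 0.0514% and 0.000578% against at most 9.34e-05%. None of the markers in either list was listed at 0 in every library. Counts without both libraries of mouse 5 are given below.

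The Cyp4a genes stand next to each other on chromosome 4, and their coding starts are shown because 3 of them are nearly the same sequence, which bears on how far their counts can be told apart. These are the first 90 coding bases in GENCODE M21 (GRCm38), written in the sense of the gene, with capitals at bases that differ from Cyp4a10.
Cyp4a10 (gene at chr4:115518264-115533649, plus strand): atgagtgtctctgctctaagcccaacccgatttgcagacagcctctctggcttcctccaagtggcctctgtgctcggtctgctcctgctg
Cyp4a31 (gene at chr4:115563649-115579015, plus strand): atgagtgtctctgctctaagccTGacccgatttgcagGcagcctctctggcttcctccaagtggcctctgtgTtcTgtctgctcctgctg
Cyp4a32 (gene at chr4:115600969-115621602, plus strand): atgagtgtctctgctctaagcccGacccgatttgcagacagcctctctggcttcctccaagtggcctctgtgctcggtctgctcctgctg
Cyp4a14 (gene at chr4:115486200-115496142, minus strand): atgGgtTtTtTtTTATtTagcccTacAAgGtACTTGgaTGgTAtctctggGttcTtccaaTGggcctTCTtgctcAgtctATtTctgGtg
In this stretch Cyp4a31 differed from Cyp4a10 at 5 bases, Cyp4a32 at 1 and Cyp4a14 at 34. Over the whole coding sequence, identity to Cyp4a10 was 97.2% for Cyp4a32, 96.6% for Cyp4a31 and 75.7% for Cyp4a14. Counting 31-base words, 62.8% of those in Cyp4a32 transcripts also occurred in another gene, and 49.2% of all its words occurred in Cyp4a10. The share was 44.9% for Cyp4a10, 32.0% for Cyp4a31 and 1.99% for Cyp4a14. Among the other members it reached 49.9% for Cyp3a59 and 45.9% for Cyp3a25, which share most with each other. It was 26.7% for Cyp4f16, which shares most with Cyp4f37, 15.7% for Cyp3a11, 7.67% for Cyp1a2 and 0.24% for Cyp3a13. Among members with too few counts to be tested, it was 48.4% for Cyp3a44, 29.0% for Cyp4a29, 27.4% for Cyp4f37 and 27.3% for Cyp3a16. Counts of Cyp4a10, Cyp4a31 and Cyp4a32, and of Cyp3a25 and Cyp3a59, could therefore be split between the copies, and their single-gene values are uncertain. The same limit bears on Cyp4f16 and on these untested members, while Cyp4a14 and Cyp3a13 are nearly free of it.

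RefSeq promoters (GRCm38.p6, 250 bases before to 50 after the start site) are shown for Cyp1a2, Cyp3a11 and Cyp3a25, the most abundant Cyp1 and Cyp3a members, and for Cyp3a59, a low member that shares much of its sequence with Cyp3a25. Those bases in capitals are TATAAA, the nuclear receptor half-site AGGTCA and the AHR core GCGTG, each searched on both strands.
Cyp1a2 (chr9:57683606-57683905, minus strand): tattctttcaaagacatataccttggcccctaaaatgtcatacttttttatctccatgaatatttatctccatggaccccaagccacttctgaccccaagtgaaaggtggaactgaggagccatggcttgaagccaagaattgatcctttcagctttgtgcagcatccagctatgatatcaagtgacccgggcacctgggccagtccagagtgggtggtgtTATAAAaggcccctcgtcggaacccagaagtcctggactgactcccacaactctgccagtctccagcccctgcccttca
Cyp3a11 (chr5:145879805-145880104, minus strand): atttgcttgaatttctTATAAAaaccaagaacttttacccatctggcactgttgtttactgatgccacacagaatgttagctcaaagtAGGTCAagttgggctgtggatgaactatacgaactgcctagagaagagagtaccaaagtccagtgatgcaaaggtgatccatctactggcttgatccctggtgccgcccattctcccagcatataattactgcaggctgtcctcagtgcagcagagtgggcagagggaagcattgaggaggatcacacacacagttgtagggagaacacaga
Cyp3a25 (chr5:146009568-146009867, minus strand): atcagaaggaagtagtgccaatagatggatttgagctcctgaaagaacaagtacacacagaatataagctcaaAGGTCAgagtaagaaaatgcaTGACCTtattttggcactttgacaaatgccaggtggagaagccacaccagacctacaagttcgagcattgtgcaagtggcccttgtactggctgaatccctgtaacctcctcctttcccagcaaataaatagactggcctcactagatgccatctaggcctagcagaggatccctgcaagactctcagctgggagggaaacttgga
Cyp3a59 (chr5:146079008-146079307, plus strand): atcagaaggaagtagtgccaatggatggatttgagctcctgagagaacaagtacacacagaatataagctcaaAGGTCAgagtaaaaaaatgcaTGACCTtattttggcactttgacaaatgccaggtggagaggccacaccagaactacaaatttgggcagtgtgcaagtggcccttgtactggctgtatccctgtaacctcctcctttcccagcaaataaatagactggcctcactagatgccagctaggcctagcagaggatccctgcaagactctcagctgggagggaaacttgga
Of 32851 promoters of this length, 13.6% held TATAAA, 16.3% held AGGTCA and 32.4% held GCGTG. Cyp1a2 held TATAAA beginning at position -29 from its start site, and Cyp1a1 held it at -30 with 1 GCGTG. The window of Cyp1a2 held no GCGTG, while those of Cyp1b1, Cyp4f16, Cyp4f39 and Cyp4v3 and 1 window of Cyp4f14 did. Cyp3a25, Cyp3a59 and Cyp3a57 held 2 AGGTCA each, and the windows of Cyp3a25 and Cyp3a59 differed at 11 of 300 bases. Cyp3a11 and Cyp3a44 held 1 AGGTCA and 1 TATAAA each, with TATAAA beginning at -234 and -122, farther from the start site than in the Cyp1a genes. TATAAA also occurred in Cyp3a16 at -126 and in Cyp4a32 at -113, and AGGTCA in Cyp4a29. A match describes letters in this window and shows neither a binding site nor a cause. An entry was found for 22 members, and those without one were Cyp4a10, Cyp4a14, Cyp4a31, Cyp4f17 and Cyp4x1.

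Of the 27 genes, 16 had enough counts to be tested and 11 did not. By mean lysate TPM, Cyp4a14 led at 1504 ± 1533, followed by Cyp3a11 at 1120 ± 279 and Cyp4a10 at 1103 ± 983 (SD, n = 6). The gaps among these 3 are smaller than their spread between mice. Cyp1a2 at 249.8 ± 107.5, Cyp3a25 at 228 ± 61, Cyp4v3 at 148 ± 20 and Cyp4f14 at 122 ± 28 TPM came next. Cyp1a2 and Cyp3a25 lay within their spread of each other, as did Cyp4v3 and Cyp4f14, while the lowest Cyp3a25 lysate, at 169.8 TPM, was above the highest Cyp4v3 lysate, at 163.6 TPM. Below 100 TPM were Cyp3a13 at 76.5, Cyp4f15 at 44.4, Cyp4f13 at 35.1, Cyp4a32 at 22.6, Cyp4a31 at 16.7, Cyp4b1 at 6.48, Cyp4f17 at 5.62, Cyp3a59 at 5.54 and Cyp4f16 at 1.24. All 27 together took 0.397 to 1.14% of lysate counts and 0.504 to 1.38% of WAM counts.

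**Figure D1:**
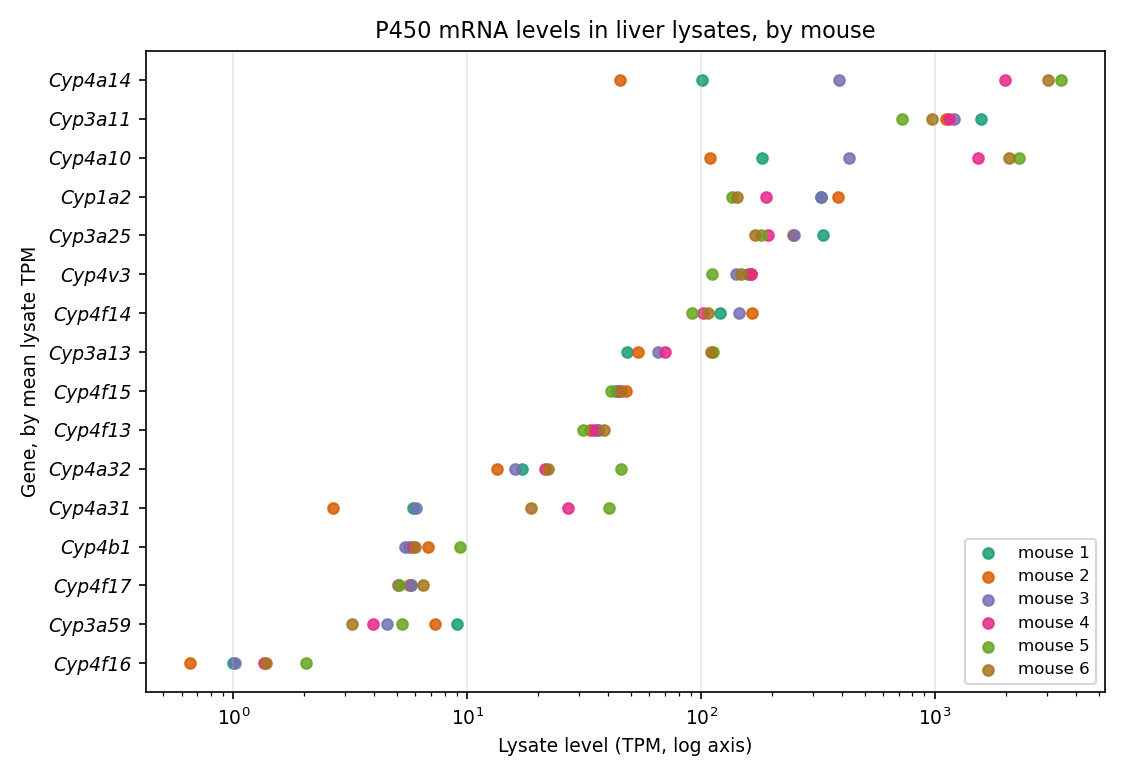
Lysate level of each tested P450 mRNA in TPM on a log axis, 1 point per mouse, genes ordered by their mean. The points of Cyp4a14 run from 45.0 to 3460 TPM, while those of Cyp4f15 lie between 41.3 and 47.9 TPM.

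The 11 genes that were not tested were close to absent. Cyp3a16, Cyp4a29, Cyp4f37 and Cyp4f40 were listed at 0 in every library, and 0 of 105758608 counts allows a level of up to 0.0284 CPM (3 counts over all libraries; this limit covers counting error only). Cyp1a1, the AHR-induced partner of Cyp1a2, had 14 counts over the 6 lysates and 21 over the 6 WAM libraries. Cyp1b1 had 16 and 13, Cyp3a57 had 4 and 9, Cyp4x1 had 3 and 2, and Cyp3a44 had 1 and 0. Cyp4f18, which degrades leukotriene B4 in mouse neutrophils, had 7 and 14, and Cyp4f39, which acts on very long fatty acids in skin, had 30 and 13, with 8 the highest count of any of the 11 in 1 library.

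The fatty acid hydroxylases Cyp4a14, Cyp4a10 and Cyp4a31 had the largest spread between mice of all tested members. Cyp4a14 stood at 101, 45.0, 390, 1990, 3460 and 3038 TPM in the lysates of mice 1 to 6, and at 109, 42.3, 396, 1438, 2978 and 3023 TPM in their WAM libraries. Mice 4, 5 and 6 were high in both fractions, mouse 3 was between, and mice 1 and 2 were low. The highest lysate was 76.8-fold above the lowest, and the highest WAM library 71.5-fold.

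Cyp4a10 followed the same order of mice in lysates, at 183, 109, 430, 1527, 2292 and 2080 TPM, a 21.1-fold range. Cyp4a31 ranged 15.2-fold between lysates, from 2.65 TPM in mouse 2 to 40.3 in mouse 5, and Cyp4a32 only 3.37-fold, from 13.4 to 45.2 TPM. In TPM all 4 were lowest in the lysate of mouse 2 and highest in that of mouse 5. In CPM the lowest lysate for Cyp4a32 was that of mouse 3, at 9.52 against 9.94 in mouse 2. As SD of log2 CPM between lysates, the spread was 2.60 for Cyp4a14, 1.82 for Cyp4a10 and 1.43 for Cyp4a31, against a median of 0.19 over the 11181 genes tested. Cyp4a14 ranked 28 among them. The Cyp4a genes together took 0.0262% of the counts in the lysate of mouse 2 and 0.912% in that of mouse 5. In bulk tissue, fewer cells that express a gene and less RNA per cell cannot be told apart.

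**Figure D2:**
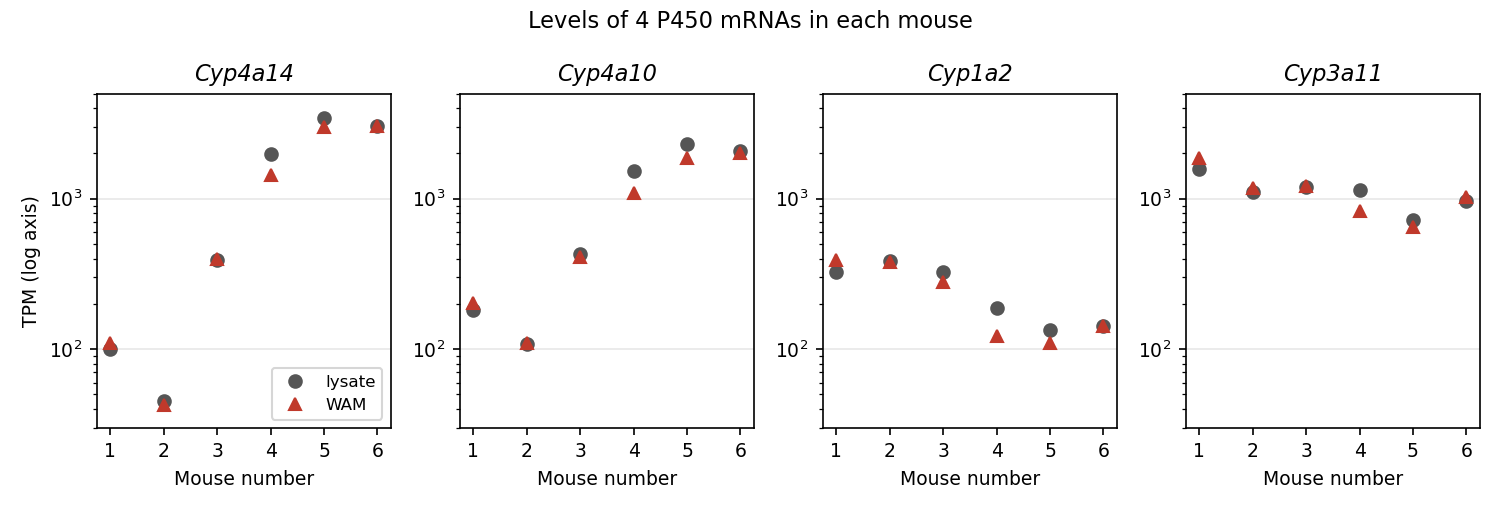
Level in TPM on a log axis of Cyp4a14, Cyp4a10, Cyp1a2 and Cyp3a11 in each mouse, with circles for lysate and triangles for WAM. On this axis the WAM point lies near the lysate point of the same mouse. For Cyp4a14, lysate and WAM were at 45.0 against 42.3 TPM in mouse 2 and 3038 against 3023 TPM in mouse 6. Gaps were wider in mouse 4, at 1990 against 1438 TPM for Cyp4a14 and 189 against 122 TPM for Cyp1a2.

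As a summed share of counts, other targets of PPARA were higher in the lysates of mice 4, 5 and 6. The 25 listed targets, which exclude the Cyp4a genes, took 1.08, 1.01, 0.979, 1.70, 1.68 and 1.86% of counts in the lysates of mice 1 to 6. Ehhadh, the bifunctional enzyme of peroxisomal beta-oxidation, stood at 153, 129, 129, 811, 843 and 794 TPM. Acot1, a cytosolic acyl-CoA thioesterase, stood at 52.1, 33.9, 72.1, 288, 246 and 317 TPM. Vnn1, a pantetheinase anchored to the outer cell membrane, stood at 8.74, 12.0, 15.8, 56.6, 58.1 and 76.1 TPM. Not every target did so: Pdk4, an inhibitor of glucose oxidation, stood at 6.97, 4.41, 7.15, 2.17, 3.26 and 5.96 TPM. Mouse 3 grouped with mice 1 and 2 for Ehhadh, while its Cyp4a14 level was already above theirs. Ehhadh, Acot1 and Pdk4 were chosen for naming after their values were seen. Ppara itself stood at 76.0, 77.5, 62.2, 107, 93.4 and 104 TPM. What sets the mice apart was not tested, and the labels give all of them the same feeding state.

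The genes whose pattern over the 12 libraries lay closest to that of Cyp4a14, outside the families, were Cntnap1, Rad51b, A1bg, Gm9794 and Cyp17a1. Their mean absolute difference from it, in log2 CPM centred on each fraction, was 0.75, 0.84, 0.97, 1.00 and 1.02, against 0.66 for Cyp4a10, 1.21 for Cyp4a31 and a median of 2.18 over all genes tested. Except for Cyp17a1, the steroid hydroxylase and lyase, and the predicted gene Gm9794, they were low, with Cntnap1 at 0.0635 to 2.99 and Rad51b at 0.20 to 5.55 TPM in lysates. Cyp17a1 stood at 5.32, 4.41, 8.63, 7.93, 64.6 and 54.0 TPM in the lysates of mice 1 to 6, so that mouse 4, high for Cyp4a14, was low for it.

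Cyp1a2, the main hepatic Cyp1 enzyme, ran the other way. Its lysate levels were 324, 385, 324, 189, 135 and 142 TPM in mice 1 to 6, and its WAM levels 391, 382, 281, 122, 110 and 142 TPM. Each of mice 1, 2 and 3 lay above each of mice 4, 5 and 6 in both fractions. Cyp3a25, a steroid and drug hydroxylase, had the same split, at 332, 246 and 250 TPM in the lysates of mice 1 to 3 and 192, 180 and 170 TPM in those of mice 4 to 6. Cyp3a11, the chief drug-metabolising Cyp3a of mouse liver, ranged from 722 TPM in mouse 5 through a median of 1129 to 1567 TPM in mouse 1. Cyp3a13 was lowest at 48.0 TPM in mouse 1 and highest at 112 TPM in mouse 5.

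The 15 listed PXR and CAR targets took 0.509, 0.45, 0.48, 0.285, 0.262 and 0.304% of counts in the lysates of mice 1 to 6. Within that list Cyp2c29 was lower in mice 4 to 6, at 1352, 1098 and 1183 TPM in mice 1 to 3 and 364, 284 and 537 TPM in mice 4 to 6. Cyp2b10, a classical CAR target of the same list, did not, at 7.03, 0.966 and 5.91 TPM in mice 1 to 3 and 3.49, 17.4 and 12.8 TPM in mice 4 to 6. The 13 pericentral hepatocyte markers, from the zone where Cyp1a2 is normally strongest, together took 0.785, 0.843, 0.871, 0.821, 0.894 and 0.843%. This sum did not divide the mice in this way, but it can hide opposite changes of single markers. Cyp2e1, the most abundant of them, stood at 3327, 3642 and 4071 TPM in mice 1 to 3 and 4349, 4836 and 4789 TPM in mice 4 to 6. Glul, the next most abundant, did not divide the mice. Whether the zone bears on the split of Cyp1a2 was not tested. The steadiest members were Cyp4f13, Cyp4f15 and Cyp4f17, each with an SD of log2 CPM between lysates of 0.14, followed by Cyp4v3 at 0.28 and Cyp4b1 at 0.31. The other tested Cyp4f genes, Cyp4f14 and Cyp4f16, had 0.40 and 0.44, close to Cyp3a11 and Cyp3a25 at 0.42 each. Of the 16 tested members, 13 had a larger SD than the median gene.

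Against this spread between animals, the change from lysate to WAM was much alike from gene to gene. Of 16 tested members, 13 were called higher in WAM and none was called lower. Their median change on the log2 scale was 1.29, with a range of 0.92 to 1.54, relative to a median of -0.08 for all genes tested (edgeR quasi-likelihood F test, adjusted p under 0.05). A gene is called here at that adjusted p. At an unadjusted p under 0.05 the counts were 13 higher and 0 lower, and DESeq2 also gave 13 and 0. Of all 11181 genes tested, 29.5% were called higher and 28.8% lower. A log2 fold change of at least 1 was reached by 12 of the called members, and by 16% of all genes. Without both libraries of mouse 5, a choice made after the data were seen, 13 members were again called higher.

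This direction is relative to the typical mRNA, and on TPM as deposited it was not seen: with log2(TPM + 1) the members' median was -0.21, with 3 members lower and 0 higher, while the median of all genes was -1.22. Scaled to library totals, the members' median was 0.17 and that of all genes -1.19, with 1 member called higher and 0 lower, and the calls over all genes were 503 higher and 8652 lower in place of 3293 and 3218. With WAM TPM divided by the authors' coefficient and 1 added, all 16 members were called lower, at a median of -2.33 where that of all genes was -2.53. The 13 mRNAs encoded in mitochondrial DNA took 2.19 to 3.29% of lysate counts and 12.5 to 23.1% of WAM counts. Their part in the difference between scales was not tested, and leaving them out of the counts gave 13 members higher and a median of 1.29.

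The Cyp3a genes, enzymes of drug and steroid clearance, were all called higher where tested. Cyp3a11 CPM was 739 to 1706 in lysates with a median of 1279, and 2436 to 6247 in WAM with a median of 3060, so the fractions did not overlap, and it rose by 1.54 on the log2 scale (SE 0.25, adjusted p = 0.000121). Cyp3a13 rose by 1.37 (SE 0.25, adjusted p = 0.000336), Cyp3a59 by 1.29 (SE 0.32, adjusted p = 0.00306) and Cyp3a25 by 1.28 (SE 0.27, adjusted p = 0.00104). Cyp1a2 lay at 112 to 383 CPM in lysates and 299 to 1071 CPM in WAM, which overlap, and rose by 1.43 (SE 0.39, adjusted p = 0.00591).

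Cyp4v3, the mouse counterpart of the fatty acid hydroxylase CYP4V2 of humans, lay at 190 to 336 CPM in lysates and 588 to 1031 in WAM, with no overlap. It rose by 1.47 (SE 0.16, adjusted p = 3.37e-06). All 5 tested Cyp4f genes, whose enzymes act on leukotrienes and long fatty acids, were called higher without overlap between fractions. Cyp4f14 went from 87.6 to 189 CPM in lysates to 210.1 to 422 in WAM and rose by 1.27 (SE 0.23). Cyp4f15 went from 37.0 to 49.5 CPM to 76.7 to 132 CPM and rose by 1.28 (SE 0.12). Cyp4f16, Cyp4f13 and Cyp4f17 rose by 1.44, 1.20 and 1.02, and the adjusted p of the 5 ran from 7.13e-07 to 0.000277. Cyp4b1, known for activating lung toxins, rose by 1.20 (SE 0.16, adjusted p = 1.81e-05) from 3.83 to 6.53 CPM in lysates to 10.3 to 15.8 CPM in WAM.

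In 10 members the lowest WAM library lay above the highest lysate, which held for 20.3% of all genes. The 6 others were Cyp1a2, Cyp3a59, Cyp4a10, Cyp4a14, Cyp4a31 and Cyp4a32.

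The 3 members that were not called were Cyp4a14 at 1.44 on that scale (SE 1.08, adjusted p = 0.265), Cyp4a10 at 1.39 (SE 0.81, adjusted p = 0.154) and Cyp4a31 at 1.26 (SE 0.65, adjusted p = 0.109). Their log2 fold changes are as large as those of the called members, and their SEs are the 3 largest. Cyp4a14 lay at 59.0 to 3794 CPM in lysates and 124 to 11932 CPM in WAM. With the mouse as a block in the same test, all 3 were called higher: Cyp4a14 at 1.44 (SE 0.12, adjusted p = 9.57e-09), Cyp4a10 at 1.42 (SE 0.11, adjusted p = 2.89e-09) and Cyp4a31 at 1.28 (SE 0.09, adjusted p = 4.58e-10). The block raised the count from 13 to 16 of 16, against 33.5% of all genes, and gave a smaller SE for each of the 16, with a median of 0.10 in place of 0.25. Without both libraries of mouse 5, Cyp4a14, Cyp4a10 and Cyp4a31 gave 1.39, 1.39 and 1.26 with the block. In the test without a block, Cyp4a31 was called when the lysate library of mouse 5 was left out, at 1.70 (adjusted p = 0.0421). It was not called in that test without the WAM library of mouse 5, at 0.77 (adjusted p = 0.307). Nor was it called without both, at 1.21 (adjusted p = 0.109). The fourth tested Cyp4a gene, Cyp4a32, rose by 0.92 (SE 0.27, adjusted p = 0.0103). Both libraries of mouse 5 stood apart for this gene. Its change was 1.22 without the lysate library of mouse 5, 0.68 without the WAM library of mouse 5 and 0.97 without both.

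**Figure D3:**
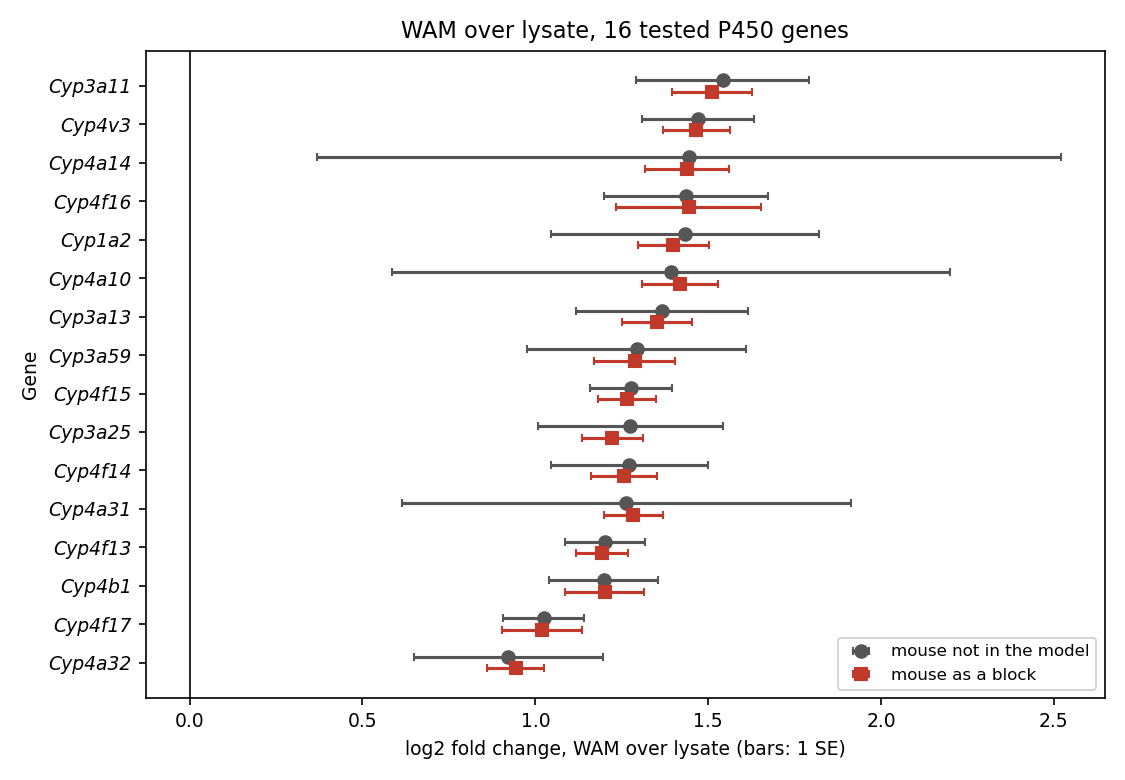
Log2 fold change of WAM over lysate on the TMM-scaled CPM scale for the 16 tested members, with bars of 1 SE, for the test without the mouse (circles) and with the mouse as a block (squares). The bar of Cyp4a14 shrinks from 1.08 to 0.12 while its centre stays at 1.44. On TPM + 1 without taking off the shift of all genes, the members' median was -0.21.

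Within a mouse, the ratio of WAM to lysate was similar from animal to animal while the level was not. For Cyp4a14 the log2 ratios of CPM were 1.75, 1.08, 1.63, 1.19, 1.65 and 1.32 in mice 1 to 6, an SD of 0.28 where the level itself had an SD of 2.60. Mouse 1, low for Cyp4a14, and mouse 5, highest for it, thus had nearly equal ratios. Cyp4a10 had ratios from 1.18 to 1.77, Cyp4a31 from 0.98 to 1.62, Cyp1a2 from 1.03 to 1.90 and Cyp3a11 from 1.20 to 1.87. All 16 tested members were above 0 in 6 of 6 mice, as were 30% of all genes tested.

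The mice also differed in the ratio itself, and the members did so together. Their median log2 ratio was 1.73, 1.09, 1.42, 1.08, 1.34 and 1.19 in mice 1 to 6, where the median over 11111 genes with counts in every library lay between -0.12 and 0.01. Mouse 1 gave the highest ratio for 13 of the 16, a count that was not made over all genes. Genes outside the members did so too: mouse 1 was highest for Por at 2.03, Vnn1 at 1.82, Cyp2e1 at 1.74 and Cyp27a1 at 1.68. Mouse 2 was highest for Cyb5a at 0.58 and Ehhadh at -0.10, and mouse 6 for Acot1 at 0.42. The SD of the ratio over mice had a median of 0.27 for the members and 0.25 for the 11111 genes. The widest was Cyp4f16, at 0.47, a gene with 0.758 to 1.91 CPM in lysates, and the narrowest Cyp4f17, at 0.15.

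**Figure D4:**
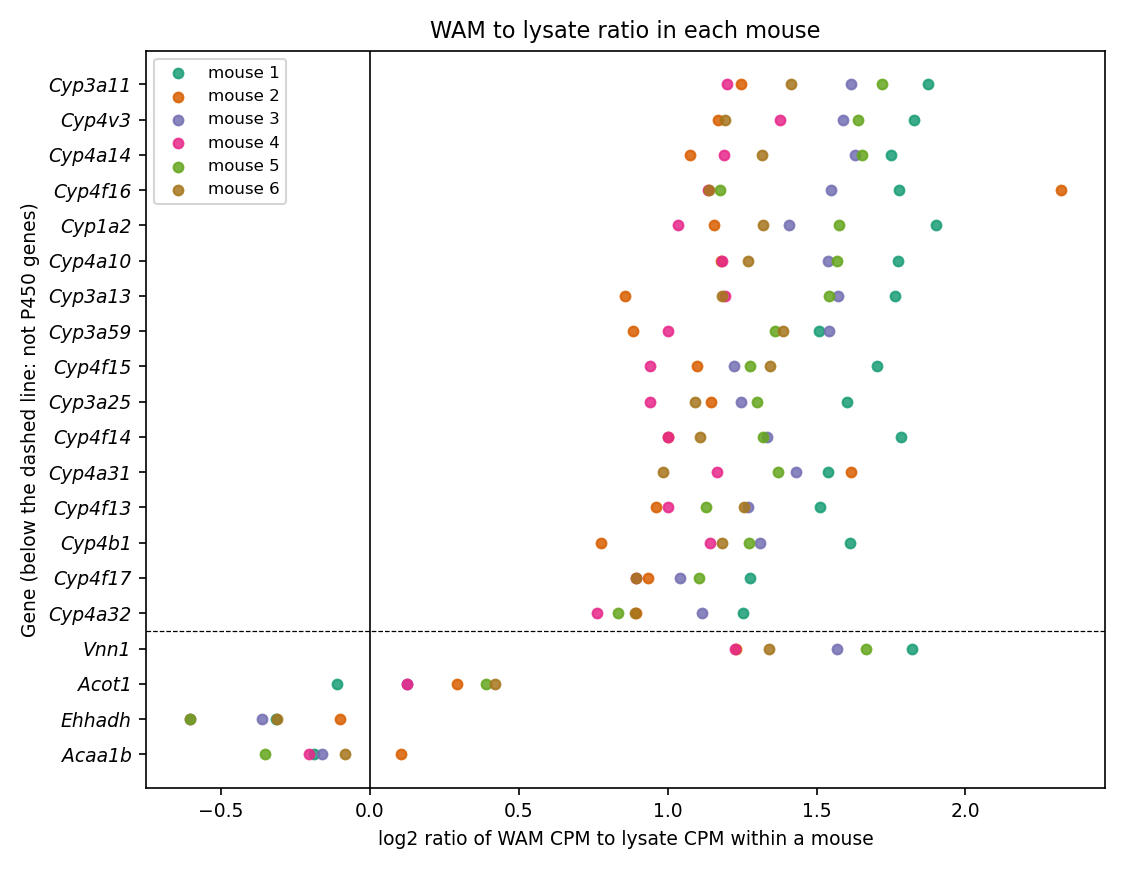
Log2 ratio of WAM to lysate CPM within each mouse, 1 point per mouse, for the 16 tested members above the dashed line and 4 PPARA targets of other kinds below it. Every member lies to the right of 0 in all 6 mice, as does Vnn1, while Ehhadh lies to the left of 0 in all 6; CPM is TMM-scaled, and on TPM + 1 the members' median was -0.21.

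PPARA targets outside the P450s did not share one direction. Of 25 tested, 6 were called higher and 19 were not called, and their median change (log2) was -0.16. With the mouse as a block 9 were higher and 9 lower. Over all 11181 genes, 29.5% were called higher and 28.8% lower without the block. With it, 3747 of them were higher and 4044 lower, so mixed directions are not particular to this list. Vnn1 rose by 1.43 (SE 0.58, adjusted p = 0.0488; 1.46 and adjusted p = 1.04e-10 with the block), with ratios of 1.23 to 1.82 within mice. Ehhadh was at -0.46 (SE 0.61, adjusted p = 0.532; -0.39 and adjusted p = 0.000913 with the block), with ratios of -0.60 to -0.10. Acot1 had 0.28 (adjusted p = 0.719; 0.23 and adjusted p = 0.0146 with the block). The difference between these genes and the Cyp4a genes was not tested.

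Beyond the chosen families, 28 of 36 tested microsomal P450s were called higher and 8 were not called, with a median of 1.29; with the block 35 were higher. Cyp2e1, which oxidises ethanol, rose by 1.28 (SE 0.14, adjusted p = 2.81e-06), and Cyp2b10 by 1.60 (SE 0.62, adjusted p = 0.0404). Cyp4a12a and Cyp4a12b, arachidonic acid hydroxylases of male mice whose symbols end in a letter and so fall outside the rule, rose by 1.33 (SE 0.15, adjusted p = 3.65e-06) and 1.27 (SE 0.15, adjusted p = 7.86e-06). Their lysate levels, 148 to 228 TPM and 64.6 to 110 TPM, varied far less than those of Cyp4a10 and Cyp4a14. Cyp3a41a, Cyp3a41b, Cyp4a30b and the listed pseudogenes were not tested.

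Proteins that serve the P450s gave mixed values. Of 8 tested electron partners 4 were called higher, with a median of 0.82. Por, the reductase, rose by 1.51 (SE 0.27, adjusted p = 0.000249) and Pgrmc1, a haem-binding membrane protein, by 1.66 (SE 0.15, adjusted p = 5.29e-07), while Cyb5a, microsomal cytochrome b5, which inserts into the ER through its tail after synthesis, was at 0.35 (SE 0.20, adjusted p = 0.156; 0.33 and adjusted p = 0.0019 with the block). Of 3 tested genes of the mitochondrial P450 system, Cyp27a1, the sterol hydroxylase of bile acid synthesis, rose by 1.30 (SE 0.11, adjusted p = 2.72e-07), and its electron donor Fdx1 was at 0.25 (adjusted p = 0.295; 0.23 and adjusted p = 0.00453 with the block).

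The mRNAs of the receptors that govern these genes, and of their partners, were lower in WAM or not called. Of 17 regulators tested 9 were called lower and 8 were not called, with a median of -0.43. Ahr fell by 0.77 on the log2 scale (adjusted p = 0.000899), its partner Arnt by 0.71 (adjusted p = 3.41e-06), Ppara by 0.46 (adjusted p = 0.00261), Hnf4a by 0.45 (adjusted p = 0.000396) and Rxra by 0.36 (adjusted p = 0.0259). With the mouse as a block 11 were lower. Nr1i2, which encodes PXR, was at -0.19 (adjusted p = 0.372; -0.20 and adjusted p = 0.0251 with the block), and Nr1i3, which encodes CAR, at -0.06 (adjusted p = 0.609). Of 12 tested PXR and CAR targets, some of them P450s, 8 were higher, with a median of 1.37, and of 4 tested AHR targets Ugt1a6a rose by 1.36 (adjusted p = 3.98e-06) and Nfe2l2 fell by 0.79 (adjusted p = 7.31e-05).

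Markers of cells other than hepatocytes moved in the same direction as the P450s: 12 of 14 Kupffer cell, 16 of 16 sinusoidal endothelial and 10 of 13 stellate cell markers tested were higher in WAM. Of hepatocyte markers 8 of 9 were higher and 1 lower, of pericentral markers 8 of 13 were higher, and of periportal markers 5 were higher and 7 lower of 13. Of 3 tested cholangiocyte markers 1 was higher and 2 were lower, and none of the 11 neutrophil markers had enough counts. As a share of counts, the Kupffer markers took 0.0375 to 0.117% in lysates and 0.0399 to 0.122% in WAM. Their part in the P450 result was not tested.

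The authors' deposited table of WAM enrichment, which divides WAM TPM by a mitochondrial content coefficient of each mouse and gives the ratio to lysate TPM as a percent, lists 1160 genes with a median of 15.4. It holds 7 of the members, and how its 1160 genes were chosen is not given here. Cyp3a25, Cyp4f15 and Cyp4f13 are among the tested members that it lacks, so it does not describe the families as a whole. The authors' deposited table gives Cyp3a11 as 22.2 (SEM 3.65), Cyp4v3 as 21.2 (3.23), Cyp4a10 and Cyp4a14 as 20.8 (3.48 and 3.07), Cyp1a2 as 20.7 (3.61), Cyp3a13 as 19.4 (2.50) and Cyp4f14 as 18.7 (3.19). In that table the SEMs of Cyp4a10 and Cyp4a14 are close to those of Cyp1a2 and Cyp4v3. These SEMs describe ratios within mice, and every gene of a mouse is divided by the same coefficient. Recomputed here, that coefficient ran from 2.84 in mouse 2 to 6.40 in mouse 5. Close SEMs therefore cannot show how the genes differ in their spread between mice.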

How the data were processed

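Poly(A)-selected RNA (250 ng) from fractions of 1 g of liver was sequenced from directional libraries, per the labels' protocols. The authors deposited unnormalised estimated counts for each Ensembl gene, per the file headers; 32.5% of non-zero values were not whole, and all were rounded. The 48042 lines of that table were reduced to 1 per gene. The deposited TPM values were used for levels between genes. The authors' enrichment score, a percent that can exceed 100, was used for description only. Tools named by the submitters' processing notes, with no role stated, were kallisto 0.44.0, fastp 0.12.4, R 3.5.0 and DESeq2 1.20.0. Of the authors' build and annotation nothing is stated in the sources used here. Left unused were 60 other per-sample columns.

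Genes were tested with edgeR 4.0.16 (quasi-likelihood F test, TMM, filterByExpr, R 4.3.3) with Benjamini-Hochberg adjustment over all 11181 genes kept, and called at an adjusted p under 0.05. Log2 CPM used a prior count of 2. The SEs given with edgeR changes were derived from the test, as the size of the log2 fold change over the square root of F. The script was tested on simulated data. Members and lists were chosen with earlier results of these data known. All tested members are named; of other lists, the 2 most abundant genes by lysate CPM and the largest change were taken as the naming rule, and Por, Acot1, Ehhadh, Pdk4 and the receptors were added. Of the genes this rule names, 2 are not reported here; they stay in the counts of their list. Column names and titles give the mouse number, and as a check, deviations from the group means correlated between the fractions of a mouse with r of 0.45 to 0.77, against at most 0.40 otherwise. P-values without the block treat the libraries of a mouse as independent.

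Alternatives were the mouse as a block, DESeq2 1.42.0, other count filters, library totals, limma 3.58.1 on log2 TPM, the authors' coefficient, and leaving out libraries. Sequences were matched by symbol or identifier with Python 3.11.15, pandas 2.3.3 and Biopython 1.88.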

Additional observations from a re-analysis of the deposited data

Results flagged for a closer look

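Among 48 groups of 6 libraries (the lysate CPM, the WAM CPM and the within-mouse ratio of 16 members), 5 held a library whose gap to its nearest neighbour was large against the range of its group; chance flags about 1 group in 20. Cyp4a32 in mouse 5 stood at 25.4 CPM in lysate, with the other 5 at 9.52 to 12.8, and at 45.3 CPM in WAM, with the others at 18.5 to 22.8. Cyp4b1 in the WAM library of mouse 5 stood at 15.8 CPM, with the others at 10.3 to 11.7. Cyp4f13 in the lysate of mouse 5 was low, at 22.1 CPM against 26.4 to 28.8, and Cyp4f15 in the lysate of mouse 2 was high, at 49.5 CPM against 37.0 to 41.3. Of these 5, 4 belong to mouse 5.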

How the results depend on the processing

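Under 24 alternatives, 2 of them added after the data were seen, 383 values of single members gave 0 reversals once the shift of all genes was taken off; 363 kept their side of the threshold, 13 lost the call and 7 gained it. With the mouse as a replicate block, 16 members were higher (3747 genes higher and 4044 lower in all), with a median of 1.29, and among the members no call other than those of Cyp4a10, Cyp4a14 and Cyp4a31 changed. Leaving out 1 library at a time gave 13 to 14 members higher, a median of 1.18 to 1.37, 3135 to 3304 genes higher and 2974 to 3153 lower. The shift of the median of all genes was -1.19 with library totals, -1.22, -1.54 and -0.73 with 1, 0.1 and 5 added to TPM, and -2.53 with the authors' coefficient (1 added). After taking it off, the members' median was 1.00 with TPM + 1, 0.55 with TPM + 5 and 0.20 with the authors' coefficient, which called 4 members higher; the added amount draws low values together by construction. Genes called lower numbered 2028 with library totals and 1438 with TPM + 0.1. With a mean CPM of at least 5, 12 members were higher, and Cyp4f16 had no value. The 11 untested members had too few counts for a test at this depth.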
